A study of Homo sapiens with 8 samples.

Results

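The effect of RG3039 on cells that also received decitabine was read from 4 of the 8 RNA libraries, the 2 given both drugs (the combination) and the 2 given decitabine alone. Of 60240 genes in the deposited table, the 17534 with a mean normalised value of at least 10 over all 8 libraries were compared. The cells were HL-60, an established human promyelocytic leukaemia line, with wild-type genotype according to the labels. Duplicate wells were started at 100000 cells per mL, and RNA was taken at 72 h. Decitabine was given at 100 nM on each day from day 0 to day 2, and RG3039 once, at 2 µM on day 0. The combination wells received both on these schedules. The other 4 libraries, 2 from cells given the solvent DMSO and 2 from cells given RG3039 alone, supplied the change on RG3039 without decitabine, RG3039 against DMSO. Nothing in the labels says that the duplicate wells came from separate cultures, so p-values measure only the spread between these wells. In RNA from whole wells, a change in the make-up of the cells and a change of RNA per cell cannot be told apart.

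Decitabine, a nucleoside drug, enters newly made DNA and there captures the DNA methyltransferases, so that methylation is lost as cells divide. RG3039 is an inhibitor of DcpS, the scavenger enzyme that cleaves the short capped fragment left after an mRNA has been degraded from its tail. HL-60 cells are held at the promyelocyte stage, in which azurophil granule proteins are made, and a range of agents is known to move them toward granulocytes or monocytes. That step is known for loss of granule protease transcripts, falling MYC and the appearance of surface receptors and oxidase subunits.

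Normalised values summed to 27878621 to 32309929 per library, the depth estimated from the value of 1 read was about 20700000 to 40900000 reads, and 22205 to 25549 genes were listed above 0. The myeloid genes that define the line were present in all 8 libraries, with MPO at 69218 to 165580 and CD33 at 1053 to 1826. CDKN2A, expected to be absent as a gene deleted in this line, stood at 291 to 479, so that expectation was not met. The cause was not tested. Of 32 erythroid and megakaryocyte marker genes 6 were at 0 in every library, among them HBB and PF4, and of 31 lymphoid, stromal and epithelial ones 5 were, among them MS4A1 and COL3A1.

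Adding RG3039 to decitabine changed 1286 of the 17534 genes tested (7.33%) at an adjusted p under 0.05 with limma, 691 higher (3.94%) and 595 lower (3.39%) with the combination. Changes are log2 fold changes, combination minus decitabine, of the normalised value plus 1, a scale that understates the change of genes with low values. The median absolute log2 fold change of the called genes was 1.198, while over all tested genes the median log2 fold change was -0.02 and the median standard error 0.32. At least a 2-fold change was reached by 469 of the higher and 349 of the lower genes (818 together, 4.67% of those tested), and a 4-fold change by 146 and 83. Protein-coding genes made up 83.6% of the higher genes, 94.1% of the lower and 75.3% of all tested genes that have a type in the annotation. Of 1207 long intergenic RNA genes tested, 40 were called higher (3.31%) and 5 lower (0.41%). Calls grew with the level of a gene. Of genes with a mean of 10 to 30, 0.57% were called higher and 0.24% lower. The shares were 5.32% and 5.45% at 300 to 1000, 5.88% and 6.02% at 1000 to 3000 and 6.66% and 5.63% at 3000 and above. The gene lists below were not matched for level, and the 7.33% includes many low genes that are seldom called. A share somewhat above 7.33% thus does not mark out a list of well-expressed genes. The groups did not overlap for 53% of all tested genes, so separate groups alone mark no gene out.

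**Figure D1:**
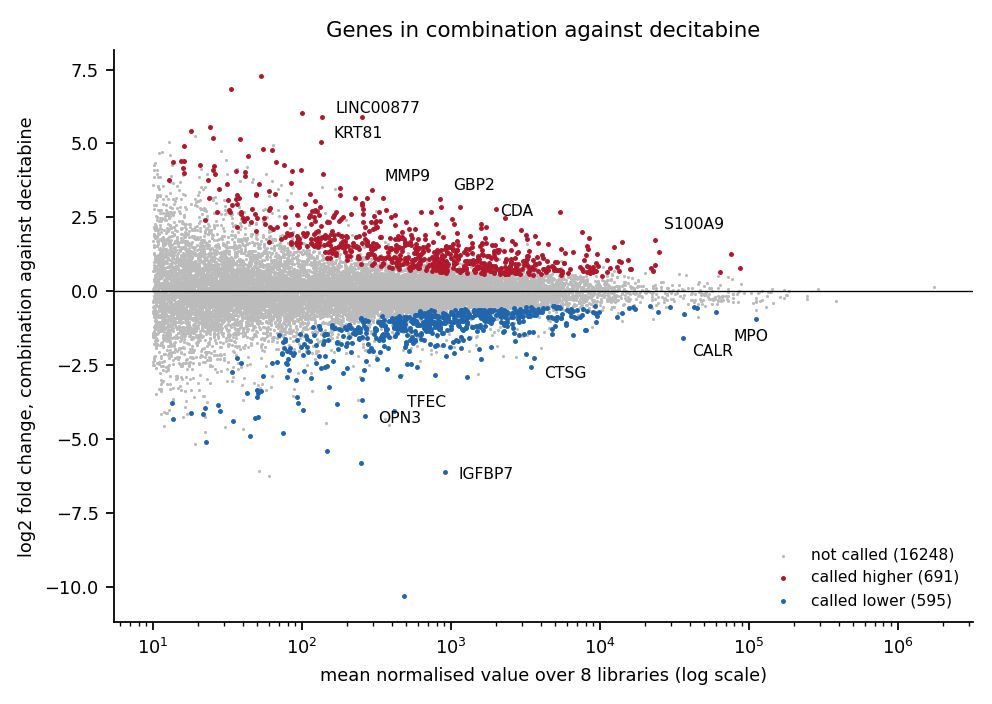
Each point is 1 of the 17534 genes tested. The x axis is the mean normalised value over the 8 libraries on a log scale and the y axis the log2 fold change of the combination against decitabine, with 691 genes called higher in red, 595 called lower in blue and the others in grey. IGFBP7 and OPN3 lie far below the line at 0 and KRT81 and LINC00877 far above it, while points at low means scatter widely without being called.

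The number of calls fell on leaving out any 1 of the 4 libraries compared. Libraries are named by group and replicate number, as in combination 2. The number was 398 without decitabine 1, 576 without decitabine 2, 305 without combination 1 and 308 without combination 2. Leaving out a library of the other groups gave 1086 to 1391. A set of 193 genes (1.1% of those tested), 121 higher and 72 lower, was called with all libraries and without each one in turn. A gene said to hold its call without each library belongs to these 193, and any other called gene was not called when at least 1 library was left out. Leaving out 1 of the 4 libraries compared leaves 1 in its group, which makes the test less precise. A call lost in this way does not show that the change came from that library. The adjusted p given for such a fit is that of limma.

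In the fit of all 4 groups, most genes called on decitabine were also called in cells without it. There, 1424 genes (8.12%) were called with RG3039 against DMSO, 794 higher (4.53%) and 630 lower (3.59%). That comparison shares no library with the first, and its count was 637 without DMSO 2, 556 without RG3039 1 and 496 without RG3039 2. Of the 691 genes higher with the combination than with decitabine, 669 (96.8%) were also higher with RG3039 than with DMSO, and 423 (61.2%) were called so. Their median log2 fold change was 1.34 on decitabine and 1.11 without it. Of the 595 lower genes 585 (98.3%) had the same direction and 301 (50.6%) were called, with medians of -1.10 and -0.81. Both sets were picked by their change on decitabine, which favours a larger median there. The medians therefore do not compare the size of the effects. Read the other way, 53.3% of the genes called higher and 47.8% of those called lower with RG3039 alone were called in the same direction on decitabine. Both comparisons use 1 estimate of the spread per gene, taken from all 8 libraries, so their calls are not independent. Fitted with only the groups compared, 1163 genes were called on decitabine and 481 without it, too few for most calls to be shared. Over all tested genes 69.0% had the same sign in both comparisons, Pearson's r of the log2 fold changes was 0.50 and Spearman's rho 0.48 (17534 genes of the same 8 libraries, which are not independent replicates). Among the 193 genes, 112 of 121 and 67 of 72 were called in the same direction with RG3039 alone.

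Whether RG3039 acted differently with and without decitabine was tested gene by gene by the difference of the 2 log2 fold changes, the interaction. No gene passed in limma at an adjusted p under 0.05 (0 of 17534, 0%), 1014 genes (5.78%) had an unadjusted p under 0.05, and the smallest adjusted p was 0.124. The median standard error of an interaction was 0.46, larger than that of a single comparison. Even the interaction of ZNF641, 4.57 ± 0.59, was not called (adjusted p = 0.183 in limma). With 2 libraries a group, differences well above their standard error could thus be missed. The lack of calls does not show that the changes were equal with and without decitabine. In fits without 1 library, 1 gene passed without DMSO 1, 2 without DMSO 2, 2 without RG3039 1 and 1 without combination 2. The changes went in opposite directions, with groups that did not overlap in either comparison, for 591 genes (3.37%).

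**Figure D2:**
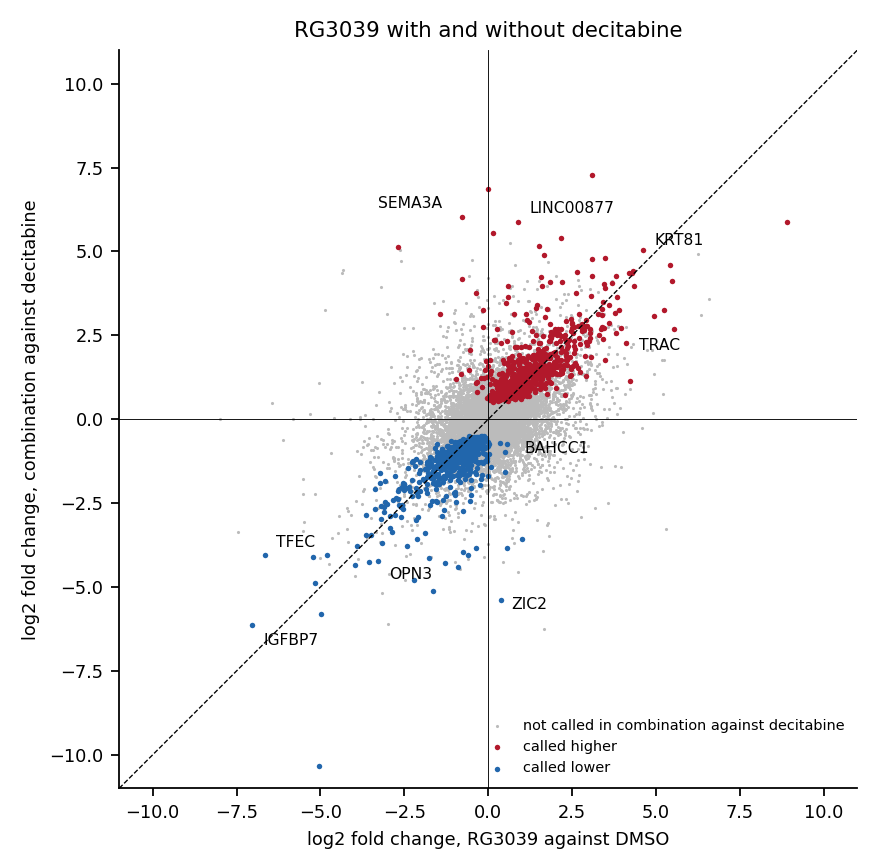
Each point is a tested gene, with the log2 fold change of RG3039 against DMSO on the x axis and of the combination against decitabine on the y axis. Red and blue mark the 691 and 595 genes called in the second comparison and the dashed line marks equal changes. Called genes lie along that line on both sides, with IGFBP7 and TFEC at the lower left and few red or blue points in the other quadrants, where BAHCC1 and ZIC2 stand. Genes listed at 0 in a whole group are plotted at the value of the fit.

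The strongest fall by p was that of IGFBP7 (ENSG00000163453.11, chr4:57030773-57110385 on GRCh38), a secreted protein that binds insulin-like growth factors. IGFBP7 had normalised values of 1457 and 942 on decitabine alone and 19.6 and 12.6 on both drugs. The DMSO libraries had 2063 and 2788 and those with RG3039 alone 15.3 and 19.4, so all 4 libraries given RG3039 were far below the other 4. The log2 fold change of IGFBP7 was -6.13 ± 0.34, adjusted p = 0.000191 on decitabine and -7.04 ± 0.34, adjusted p = 5.28e-05 without it. TFEC, a transcription factor of the family that controls lysosome genes in myeloid cells, showed 567 and 415 with decitabine, 35.4 and 22.4 with the combination, 858 and 1367 with DMSO and 4.81 and 18.8 with RG3039 alone. Its log2 fold change was -4.06 ± 0.55, adjusted p = 0.00355 on decitabine and -6.66 ± 0.55, adjusted p = 0.000406 without, and the difference of the 2 log2 changes was 2.60 ± 0.77 (unadjusted p = 0.00779, not called). OPN3, an opsin made outside the eye, fell from 599 and 437 with decitabine to 30.02 and 22.96 with the combination (log2 -4.23 ± 0.38, adjusted p = 0.000829). IGFBP7, TFEC and OPN3 held their calls without each library.

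Other deep falls within the 193 genes were chosen after their values were seen. ZMAT1, a zinc finger gene, had 273 and 157 on decitabine alone and 10.1 and 13.5 on both drugs (log2 -4.04 ± 0.49, adjusted p = 0.00213). HOMEZ, a homeobox gene, had 165 and 189 on decitabine alone and 10.9 and 12.95 on both drugs (log2 -3.79 ± 0.41, adjusted p = 0.00145). TERT, the catalytic subunit of telomerase, had 149 and 121 on decitabine alone and 20.2 and 13.9 on both drugs (log2 -2.93 ± 0.36, adjusted p = 0.00214). In each of these genes both combination libraries stood far below both decitabine libraries. CLEC11A, a secreted growth factor for haematopoietic progenitors, was an abundant gene of this kind, at 4783 and 5947 on decitabine alone and 1286 and 1139.7 on both drugs (log2 -2.14 ± 0.16, adjusted p = 0.000672). NUP210, a nuclear pore protein, gave -2.28 ± 0.21 and STAT5B, a transducer of cytokine signals, -2.28 ± 0.31 on the log2 scale (adjusted p = 0.000829 and 0.00379).

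Among the largest rises, KRT81, a hair keratin, had 12.1 and 9.35 with decitabine, 359 and 412 with the combination, 6.05 and 3.02 with DMSO and 113 and 150.4 with RG3039 alone. Its log2 fold change was 5.05 ± 0.48, adjusted p = 0.00095 on decitabine and 4.62 ± 0.48, adjusted p = 0.000836 without. KRT86 next to it rose as well (log2 4.59 ± 0.84, adjusted p = 0.0129), but it was not called at adjusted p = 0.059 to 0.1 when decitabine 1, combination 1 or combination 2 was left out, and the near-identical sequences of both keratins make either level uncertain. LINC00877, a long intergenic RNA, showed 3.20 and 17.00 with decitabine, 467 and 567 with the combination, 5.08 and 6.61 with DMSO and 11.4 and 12.02 with RG3039 alone. Only its combination libraries stood high, its log2 fold change was 5.89 ± 0.72, adjusted p = 0.00213 against 0.90 ± 0.72, adjusted p = 0.508 without decitabine, and the difference was 4.99 ± 1.01 (unadjusted p = 0.000699, adjusted p = 0.557). KRT81 and LINC00877 held their calls without each library. SEMA3A, a secreted guidance protein, was also high only in the combination libraries, at 3.23 and 3.96 on decitabine alone and 634 and 142 on both drugs (log2 6.04 ± 1.04, adjusted p = 0.0104), not called at adjusted p = 0.0611 to 0.126 when decitabine 1 or combination 1 was left out. SPP1, the secreted phosphoprotein osteopontin, was chosen after its values were seen and rose from 13.4 and 12.4 to 213 and 257 (log2 4.08 ± 0.41, adjusted p = 0.00124, held without each library).

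Other large changes were called with all libraries but not without each one. ZIC2, a zinc finger factor of the developing brain, had 379 and 641 with decitabine, 18.3 and 6.08 with the combination, 83.8 and 2.38 with DMSO and 20.6 and 20.99 with RG3039 alone. It was highest in the decitabine libraries, and both combination libraries lay within the range of the DMSO libraries (log2 -5.40 ± 1.21, adjusted p = 0.0276). TNS3, tensin 3 of focal adhesions, fell from 105 and 60.05 to 0.944 and 2.79 (log2 -4.89 ± 0.89), and BCKDHB, which acts in the breakdown of branched-chain amino acids, from 1146 and 72.2 to 4.57 and 3.85 (log2 -5.80 ± 1.17). The decitabine libraries differed widely for BCKDHB. TMEM35B, EMID1, DDN and PAQR8 fell by 4.26 to 4.80 on the log2 scale, and each was at 0 or under 1 in combination 1. Among rises, RASGRF1, an exchange factor for Ras, went from 6.65 and 3.99 to 288 and 98.5 (log2 4.78 ± 0.80), AMIGO2, an adhesion protein, from 1.69 and 10.9 to 149 and 167 (log2 4.82 ± 0.79), and CYP11A1, the first enzyme of steroid hormone synthesis, from 5.08 and 0 to 127 and 60.4 (log2 5.17 ± 1.22). On leaving out 1 library the adjusted p reached 0.162 for ZIC2 (combination 2), 0.101 for TNS3 (decitabine 1), 0.104 for BCKDHB (combination 2), 0.101 for RASGRF1 (combination 1), 0.0739 for AMIGO2 (combination 2), 0.24 for CYP11A1 (combination 1), 0.162 for TMEM35B (decitabine 1), 0.142 for EMID1 (decitabine 1), 0.15 for DDN (decitabine 2) and 0.147 for PAQR8 (decitabine 1).

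Several of the largest changes rested on values listed at 0 and are given without a fold. PTP4A1, a phosphatase gene, was listed at 0 in both combination libraries and both with RG3039 alone, at 867 and 1898 with decitabine, and at 1091 and 0 with DMSO. AC048338.2 and AC025048.6 were at 0 in both decitabine libraries and at 259.7 and 91.3 and 203 and 64.6 with the combination. SNORA81, a small nucleolar RNA, was at 0 in both decitabine libraries, 56.6 and 37.2 with the combination and 18.2 and 27.2 with DMSO. ASTN2 fell to 0 in both combination libraries from 50.2 and 22.3, and the pseudogene TRIM60P14 from 12.1 and 22.9. VARS2, a mitochondrial tRNA synthetase gene, was at 0 and 67.6 with decitabine, 548 and 435 with the combination and 0 in both DMSO libraries. Except for that of SNORA81, these calls were lost on leaving out 1 library. The highest adjusted p on leaving out 1 library was 0.151 for PTP4A1 (combination 1), 0.239 for AC048338.2 (combination 1), 0.218 for AC025048.6 (combination 1), 0.118 for ASTN2 (decitabine 1), 0.127 for TRIM60P14 (decitabine 2) and 0.196 for VARS2 (combination 1).

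**Figure D3:**
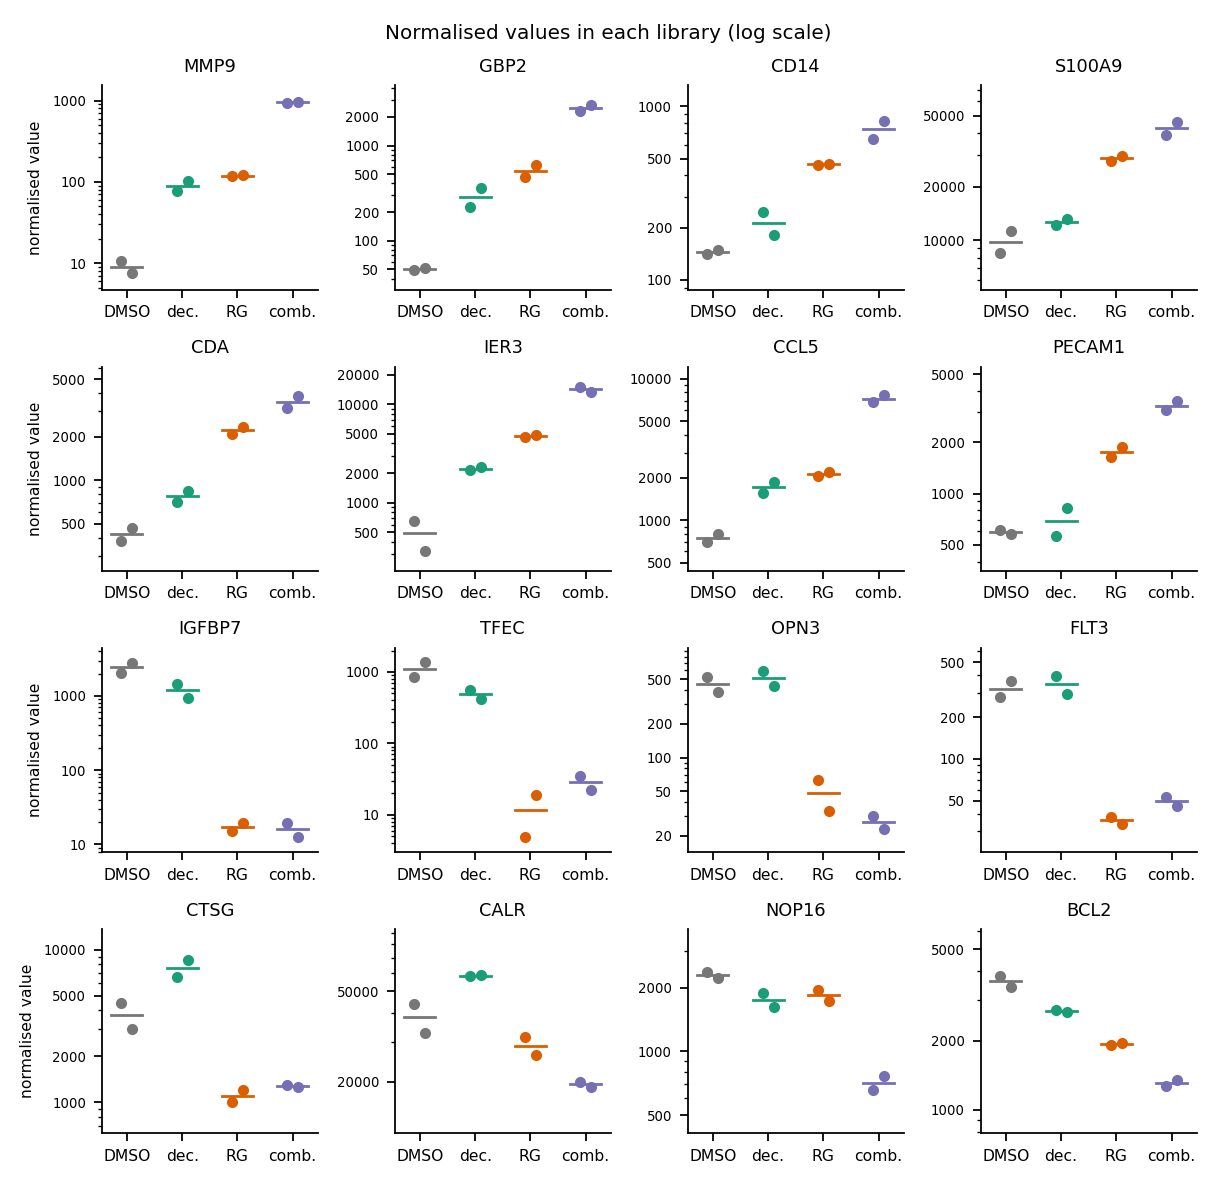
Normalised values of 16 genes on log axes, 1 point per library and a bar at the mean of each group of 2; dec., RG and comb. stand for decitabine, RG3039 and the combination. In the upper 8 panels both combination libraries lie above both decitabine libraries, and in the lower 8 below them. MMP9 stands at 941 and 963 with the combination against 76.9 and 102 with decitabine, while IGFBP7 drops to under 20 in all 4 libraries given RG3039.

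The transcripts of an enzyme that each drug acts on were lower with both drugs than with decitabine. DCPS encodes the enzyme that RG3039 blocks and had 1100.2 and 865 on decitabine alone and 543 and 416 on both drugs (log2 -1.04 ± 0.27, adjusted p = 0.0477), not called at adjusted p = 0.0504 to 0.236 when decitabine 1, decitabine 2, RG3039 1, combination 1 or combination 2 was left out. Without decitabine, DCPS gave 0.01 ± 0.27, adjusted p = 0.992 on the log2 scale. Of 24 genes of mRNA decapping and cap turnover 3 were lower and none higher (12.5% called, against 7.33% of all tested genes). They were DCPS, LSM4 of the ring that binds deadenylated mRNA (log2 -0.68 ± 0.15) and the nucleotide hydrolase HINT1 (log2 -0.67 ± 0.15). DNMT1, the maintenance DNA methyltransferase, had 13058 and 9427 on decitabine alone and 4843 and 5966 on both drugs (log2 -1.05 ± 0.22, adjusted p = 0.0226). It was not called at adjusted p = 0.078 to 0.163 when decitabine 1, combination 1 or combination 2 was left out. It was the 1 gene called of 19 DNA methylation writers, erasers and readers (5.26%, below the 7.33% of all tested genes). UHRF1, which brings DNMT1 to replicated DNA, gave -0.49 ± 0.17, adjusted p = 0.12, DNMT3A -0.12 ± 0.25, adjusted p = 0.83 and DNMT3B -0.07 ± 0.37, adjusted p = 0.938 on the log2 scale. The highest adjusted p on leaving out 1 library was 0.171 for LSM4 (combination 1) and 0.206 for HINT1 (combination 2).

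Of 17 genes of decitabine uptake and metabolism, 1 rose and 1 fell (11.8% called, against 7.33% of all tested genes). CDA, cytidine deaminase, the enzyme that inactivates decitabine, had 705 and 844 with decitabine, 3155 and 3828 with the combination, 379 and 471 with DMSO and 2082 and 2353 with RG3039 alone. The 4 libraries given RG3039 were the highest and did not overlap the others. Its log2 fold change was 2.17 ± 0.19, adjusted p = 0.000829 on decitabine, held without each library, and 2.39 ± 0.19, adjusted p = 0.000372 without decitabine. SLC29A2, a nucleoside transporter, fell from 965 and 1145 to 595 and 568 (log2 -0.85 ± 0.20, adjusted p = 0.0308), not called at adjusted p = 0.0809 to 0.156 when decitabine 1, decitabine 2, combination 1 or combination 2 was left out. DCK, the kinase that activates decitabine, gave -0.45 ± 0.20, adjusted p = 0.227 and SAMHD1, which breaks down its triphosphate, 0.26 ± 0.27, adjusted p = 0.631 on the log2 scale.

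Cancer-testis and germline genes are silenced by methylation in most adult cells, and 26 of 57 on the list were high enough to test. Of these, 1 was called lower on adding RG3039 and none higher (3.85% called, below the 7.33% of all tested genes), at a median log2 fold change of -0.32. PNMA5, a paraneoplastic antigen gene on the X chromosome, had 19.7 and 39.2 with DMSO, 33.6 and 26.3 with RG3039 alone, 7735 and 10197 on decitabine and 3079 and 3511 on the combination. Its log2 fold change against decitabine was -1.43 ± 0.32, adjusted p = 0.0261, but not called at adjusted p = 0.0883 to 0.17 when decitabine 1, decitabine 2, combination 1 or combination 2 was left out, and 0.09 ± 0.32, adjusted p = 0.901 for RG3039 against DMSO. TKTL1, a transketolase-like gene, had 380.2 and 423 on decitabine alone and 90.7 and 73.7 on both drugs (log2 -2.28 ± 0.73, adjusted p = 0.0929). TDRD9, a germline helicase, had 72.2 and 39.4 on decitabine alone and 149 and 227 on both drugs (log2 1.76 ± 0.51, adjusted p = 0.0663). Neither TKTL1 nor TDRD9 passed the test.

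Azurophil granule genes, the products of the promyelocyte stage, changed in 11 of 25 tested members (44%, against 7.33% of all tested genes). Of these 2 were higher and 9 lower, with a median log2 fold change of -0.45 against -0.02 over all genes. With RG3039 alone against DMSO 6 rose and 7 fell, at a median of 0.15, so the list did not fall as a whole there. Decitabine against DMSO gave 8 higher and none lower, at a median of 0.50. CTSG, the granule protease cathepsin G, had 6653 and 8546 with decitabine, 1285 and 1259 with the combination, 4468 and 3016 with DMSO and 999 and 1203 with RG3039 alone. The combination libraries were below all others but those with RG3039 alone, and the log2 fold change was -2.57 ± 0.21, adjusted p = 0.000797. PRTN3, proteinase 3, fell from 11813 and 13055 to 4399 and 5553 (log2 -1.33 ± 0.16, adjusted p = 0.00213), and PRSS57, another granule serine protease, from 1231 and 1383 to 342 and 162 (log2 -2.46 ± 0.33, adjusted p = 0.00364). For PRSS57 the change with RG3039 alone was -0.96 ± 0.33, adjusted p = 0.12, and both DMSO libraries (302 and 307) stood below decitabine. MPO, myeloperoxidase, was lower at 69218 and 74639 against 121481 and 158077 (log2 -0.95 ± 0.18, adjusted p = 0.0138). The defensin genes DEFA1 and DEFA3, whose near-identical sequences make each level uncertain, gave -1.32 ± 0.16 and -1.47 ± 0.22 on the log2 scale. The ribonucleases RNASE2 and RNASE3 of eosinophil granules rose instead, by log2 1.06 ± 0.25 and 0.80 ± 0.18. CTSG, PRTN3, DEFA1 and PRSS57 held their calls without each library. The highest adjusted p on leaving out 1 library was 0.123 for MPO (combination 1), 0.0513 for DEFA3 (combination 1), 0.19 for RNASE2 (decitabine 1) and 0.169 for RNASE3 (combination 2). Counting again without 1 library, 6 members were called without decitabine 1, 6 without decitabine 2, 4 without combination 1 and 6 without combination 2.

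Most called genes of monocyte and granulocyte maturation rose on adding RG3039 to decitabine. Of 57 tested members 22 rose and 1 fell (40.4% called, against 7.33%), with a median log2 fold change of 0.87, and with RG3039 alone against DMSO 24 rose and 1 fell with a median of 0.71. MMP9, the gelatinase of neutrophil granules (chr20:46008908-46016561), had 76.9 and 102 with decitabine, 941 and 963 with the combination, 10.6 and 7.55 with DMSO and 117 and 121 with RG3039 alone. Each single drug stood above DMSO and the combination above both, and the log2 fold change was 3.41 ± 0.33, adjusted p = 0.00103 on decitabine and 3.59 ± 0.33, adjusted p = 0.000623 without. S100A9 and S100A8, the subunits of calprotectin, reached 38981 and 46194 and 37249 and 45555 from 12215 and 13233 and 15717 and 16878, at log2 1.74 ± 0.16 and 1.34 ± 0.16.

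Surface receptors and an oxidase subunit were part of that rise. CD14, the monocyte co-receptor for lipopolysaccharide, had 247 and 182 on decitabine alone and 651 and 826 on both drugs (log2 1.79 ± 0.24, adjusted p = 0.0033). FCGR3B, the neutrophil Fc receptor, had 120.0 and 58.2 on decitabine alone and 503 and 534 on both drugs (log2 2.62 ± 0.36, adjusted p = 0.00379), and FPR1, the receptor for formyl peptides, 104 and 156 on decitabine alone and 613 and 667 on both drugs (log2 2.32 ± 0.31, adjusted p = 0.00329). In all 3 genes both combination libraries stood above both with RG3039 alone, whose log2 changes against DMSO were 1.67 ± 0.24, 2.80 ± 0.36 and 2.14 ± 0.31. NCF1, a subunit of the phagocyte oxidase, rose by log2 1.77 ± 0.19, with reads that its pseudogenes may share. The exception was FCGR1A, the high-affinity Fc receptor, which fell from 1777 and 1982 to 503 and 515 (log2 -1.88 ± 0.19, adjusted p = 0.00128). The immediate early factor EGR1 rose (log2 1.99 ± 0.23), as did LGALS3, galectin 3 (log2 1.62 ± 0.21), and FCER1G, the signalling chain of Fc receptors (log2 1.13 ± 0.16). MMP9, S100A9, S100A8, CD14, FCGR3B, FPR1, NCF1, FCGR1A, EGR1, LGALS3 and FCER1G held their calls without each library. Without 1 library, 16 members were called without decitabine 1, 17 without decitabine 2, 13 without combination 1 and 13 without combination 2.

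Further genes of myeloid cells among the 193 were outside the lists and chosen after their values were seen. CD52, a small glycoprotein of leukocyte surfaces, rose from 787 and 939 to 5279 and 6572 (log2 2.77 ± 0.24, adjusted p = 0.000826). CYP4F3, the leukotriene hydroxylase of neutrophils, rose from 406 and 375 to 1965 and 2261 (log2 2.43 ± 0.18, adjusted p = 0.000672), and IL1RN, the interleukin-1 receptor antagonist, from 433 and 523 to 2283 and 2353 (log2 2.28 ± 0.19, adjusted p = 0.000806). ALOX5AP, which serves leukotriene synthesis, PADI4, the histone deiminase of neutrophils, and CHI3L1, a secreted chitinase-like protein, gave 1.79 ± 0.18, 1.49 ± 0.16 and 1.26 ± 0.16 on the log2 scale. JAML, an adhesion molecule of leukocytes, had 259.8 and 195 with decitabine, 1177 and 1089 with the combination, 243 and 263 with DMSO and 377 and 374 with RG3039 alone. Its rise was 2.32 ± 0.21, adjusted p = 0.000926 on decitabine and 0.57 ± 0.21, adjusted p = 0.147 without, a difference of 1.76 ± 0.30 with a 95% interval of 1.08 to 2.43 (unadjusted p = 0.000207, adjusted p = 0.453). HVCN1, the proton channel that serves the oxidase, went the other way in size, at log2 1.41 ± 0.16 on decitabine and 2.74 ± 0.16 without (adjusted p of the interaction 0.452).

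Receptors and transcription factors of stem and progenitor cells fell in 6 of 26 tested members (23.1%, against 3.39% of all tested genes) and rose in none. FLT3, a growth factor receptor of progenitors, had 397 and 296 with decitabine, 53.4 and 45.9 with the combination, 281 and 362 with DMSO and 37.9 and 34.04 with RG3039 alone. The 4 libraries given RG3039 did not overlap the other 4, with log2 fold changes of -2.77 ± 0.31, adjusted p = 0.0016 on decitabine and -3.12 ± 0.31, adjusted p = 0.000757 without. CEBPA, the master factor of granulocyte commitment, fell from 10220.5 and 10935 to 5852 and 5884 (log2 -0.85 ± 0.12, adjusted p = 0.00405). SOX4 fell by 0.90 ± 0.15, adjusted p = 0.00785 on the log2 scale, and the receptor KIT, ETV6 and HHEX were the other 3 members called lower (log2 -1.001 ± 0.21, -1.69 ± 0.32 and -0.63 ± 0.16). FLT3 and CEBPA held their calls without each library, and the highest adjusted p on leaving out 1 was 0.0717 for SOX4 (combination 2), 0.12 for KIT (combination 2), 0.108 for ETV6 (combination 1) and 0.22 for HHEX (combination 1). The list gave 3 calls without decitabine 1, 4 without decitabine 2 and 2 without combination 1 and as many without combination 2. FLI1, an ETS factor of haematopoiesis chosen after its values were seen, fell from 1462 and 1262 to 142 and 246 (log2 -2.85 ± 0.32, adjusted p = 0.0015, held without each library). MYB, in the same list, was not called, at 11736 and 14357 on decitabine alone and 12504 and 15108 on both drugs (log2 0.08 ± 0.16, adjusted p = 0.818).

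Genes of NF-kB, AP-1 and the immediate early response rose in 12 of 41 tested members (29.3%, against 3.94% of all tested genes) and fell in none, at a median log2 fold change of 0.82. With RG3039 alone 13 rose and none fell, at a median of 0.49. IER3, an early response gene, had 2130.4 and 2289 with decitabine, 15136 and 13235 with the combination, 650.0 and 325 with DMSO and 4606 and 4824 with RG3039 alone. The order of the groups was DMSO, decitabine, RG3039 alone, combination, with no overlap, and the log2 fold change was 2.68 ± 0.27, adjusted p = 0.0012. CCL5, a chemokine for T cells and monocytes, rose from 1553 and 1859 to 6815 and 7629 (log2 2.08 ± 0.16, adjusted p = 0.000672, against 1.49 ± 0.16 without decitabine). CXCL8, the neutrophil chemokine interleukin-8, rose from 507 and 376 to 1287 and 1466 (log2 1.65 ± 0.23, adjusted p = 0.00405). IER3, CCL5 and CXCL8 held their calls without each library. Also called were the cytokines IL1B (log2 2.50 ± 0.35) and TNF (1.00 ± 0.17), the AP-1 subunits FOS (2.59 ± 0.50) and JUN (1.26 ± 0.23), and NFKB2 (1.35 ± 0.26). Their highest adjusted p on leaving out 1 library was 0.0539 for IL1B (combination 1), 0.0864 for TNF (combination 2), 0.112 for FOS (combination 1), 0.1 for JUN (combination 1) and 0.119 for NFKB2 (combination 2). The list gave 5 calls without decitabine 1, 8 without decitabine 2, 4 without combination 1 and 4 without combination 2.

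Of 42 tested interferon-stimulated genes 1 rose and none fell (2.38%, against 7.33% of all tested genes). That gene was GBP2, a guanylate-binding GTPase, with 228 and 354 with decitabine, 2288 and 2684 with the combination, 49.03 and 52.3 with DMSO and 473 and 618 with RG3039 alone (log2 3.12 ± 0.26, adjusted p = 0.000806 on decitabine and 3.39 ± 0.26, adjusted p = 0.000372 without). It held its call without each library. Of 22 antigen presentation genes 2 rose and 1 fell (13.6%). Among them, HLA-E rose from 3738 and 4418 to 6163 and 6433 (log2 0.63 ± 0.15, adjusted p = 0.0315), while ERAP1, which trims peptides for these molecules, fell from 298 and 224 to 104 and 111 (log2 -1.26 ± 0.28, adjusted p = 0.0281). Neither HLA-E nor ERAP1 was called without any 1 of the 4 libraries compared, with an adjusted p of up to 0.165 for ERAP1 (decitabine 1) and 0.17 for HLA-E (combination 2).

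MYC fell together with other genes of its network and of ribosome biogenesis, which it is known to drive. Of 56 tested members of that list 19 fell and 1 rose (35.7% called, against 7.33% of all tested genes), with a median log2 fold change of -0.54. With RG3039 alone 6 fell and 1 rose, with a median of -0.44. MYC had 1667 and 959 with decitabine, 628 and 500.0 with the combination, 2716 and 2954 with DMSO and 1721 and 1062 with RG3039 alone, and its log2 fold change was -1.17 ± 0.29, adjusted p = 0.0423. MYC was not called at adjusted p = 0.0564 to 0.226 when DMSO 1, DMSO 2, decitabine 1, combination 1 or combination 2 was left out. MAX, its partner, fell (log2 -0.66 ± 0.15), and MXD1, which competes with MYC for MAX, was the member that rose (log2 0.93 ± 0.23). NOP16, a factor of the large ribosomal subunit, had 1888 and 1616 with decitabine, 657 and 767 with the combination, 2372 and 2218 with DMSO and 1947 and 1736 with RG3039 alone. Only the combination libraries stood low, and the log2 fold change was -1.30 ± 0.16, adjusted p = 0.00249 on decitabine and -0.32 ± 0.16, adjusted p = 0.281 without, a difference of -0.98 ± 0.23 with a 95% interval of -1.497 to -0.46 (unadjusted p = 0.00194, adjusted p = 0.709). NOP14, of the small subunit, fell from 5347 and 5803 to 3073 and 2998 (log2 -0.88 ± 0.12, adjusted p = 0.0043), and URB2 from 441 and 401 to 119 and 152 (log2 -1.64 ± 0.29, adjusted p = 0.0112). RRP9, which binds the U3 small nucleolar RNA, GNL3, nucleostemin, and POLR1C, a shared subunit of RNA polymerases, gave -1.004 ± 0.18, -1.15 ± 0.24 and -1.05 ± 0.22. NOP16 and NOP14 were the 2 members that held without each library. For the others named, the highest adjusted p on leaving out 1 was 0.177 for MAX (combination 1), 0.176 for MXD1 (combination 1), 0.09 for URB2 (combination 1), 0.0946 for RRP9 (combination 1), 0.139 for GNL3 (combination 2) and 0.153 for POLR1C (combination 1). The list gave 4 calls without decitabine 1, 4 without decitabine 2, 2 without combination 1 and 4 without combination 2.

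MYC with MAX binds the E-box CACGTG, which reads the same on both strands, and that motif was looked for in the RefSeq windows (GRCh38.p14) from 250 bases before to 50 bases after the start of each gene. A window was found for 47 of the 56 tested members (83.9%), and 17 of them (36.2%) held CACGTG, against 1086 of the 11086 windows of tested genes (9.80%) and 1987 of all 27305 windows (7.28%). Members called lower held it in 6 of 16 windows (37.5%) and members not called in 11 of 30 (36.7%). The windows of NOP14 (chr4:2963382-2963656, minus strand) and RRP9 (chr3:51941880-51942154, minus strand) are shown since both genes fell and both hold the E-box close to the start; the 275 bases run to 25 bases past the start, 5′ to 3′, with CACGTG in capitals.
NOP14: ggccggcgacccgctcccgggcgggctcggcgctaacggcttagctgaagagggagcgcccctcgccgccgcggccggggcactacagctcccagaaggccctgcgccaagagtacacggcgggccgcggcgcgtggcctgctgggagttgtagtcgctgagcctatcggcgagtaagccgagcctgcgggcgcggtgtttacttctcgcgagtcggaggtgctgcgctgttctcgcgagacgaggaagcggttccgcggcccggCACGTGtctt
RRP9: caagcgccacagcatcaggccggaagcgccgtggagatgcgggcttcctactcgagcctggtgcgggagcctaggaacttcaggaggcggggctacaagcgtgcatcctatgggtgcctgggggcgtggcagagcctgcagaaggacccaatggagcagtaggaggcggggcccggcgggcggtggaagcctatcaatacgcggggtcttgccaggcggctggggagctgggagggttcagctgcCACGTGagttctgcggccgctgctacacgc
The presence of these letters describes the sequence, and binding was not measured.

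Other genes of RNA and protein production were called at rates near the 7.33% of all tested genes: 5.19% of ribosomal protein genes, 9.80% of spliceosome genes, 6.67% of SMN complex genes and 10% of tRNA synthetases. Against genes at 3000 and above, of which 6.66% were called higher and 5.63% lower, the share of ribosomal protein genes was low. Of 77 cytosolic ribosomal protein genes 3 fell and 1 rose (median log2 -0.17), of 51 spliceosome and Sm core genes 4 fell and 1 rose (median -0.17), of 15 genes of the SMN complex, which loads Sm rings, 1 fell (median -0.46), and of 20 tRNA synthetases 2 fell (median -0.14). RPL7A, of the large subunit, fell from 65952 and 64883 to 39350.3 and 39976 (log2 -0.72 ± 0.14, adjusted p = 0.0143), and SNRPF, an Sm ring protein, from 6323 and 3697 to 1979 and 2023 (log2 -1.27 ± 0.30, adjusted p = 0.0361). WDR77, a partner of the arginine methyltransferase of Sm proteins, fell by log2 0.998 ± 0.21, adjusted p = 0.0217, and the leucyl-tRNA synthetase LARS1 by 0.81 ± 0.13, adjusted p = 0.00865. None of these calls held without each library, with an adjusted p of up to 0.123 for RPL7A (combination 1), 0.208 for SNRPF (decitabine 1), 0.133 for WDR77 (combination 2) and 0.0819 for LARS1 (combination 2). Leaving out any 1 of the 4 libraries compared gave 0 calls of ribosomal protein or SMN complex genes, 0 to 2 of spliceosome genes and 0 or 1 of synthetases.

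Calls among replication (6.38%) and mitosis (6.25%) genes came near the 7.33% of all tested genes, and 14.3% of G1 genes were called. Of 47 DNA replication genes 3 fell and none rose (median log2 -0.21), and of 48 mitosis genes 2 rose and 1 fell (median 0.27). TIMELESS, which protects replication forks, had 2232 and 2594 with decitabine, 1145 and 975 with the combination, 2384 and 2346 with DMSO and 922 and 846 with RG3039 alone, a fall of log2 1.19 ± 0.16, adjusted p = 0.00354 on decitabine and of 1.42 ± 0.16, adjusted p = 0.00115 without, held without each library. Of 21 G1 cyclins and inhibitors 3 rose and none fell. CCND3, cyclin D3, rose from 2506 and 3444 to 6614 and 7224 (log2 1.23 ± 0.18, adjusted p = 0.0043, held without each library). CDKN1A, the CDK inhibitor p21, rose from 76.2 and 159 to 414 and 394 (log2 1.87 ± 0.36, adjusted p = 0.0166), not called at adjusted p = 0.0819 to 0.113 when decitabine 1, combination 1 or combination 2 was left out. The antiproliferative gene BTG1 rose by log2 0.69 ± 0.14, adjusted p = 0.022, but not called at adjusted p = 0.118 to 0.134 when decitabine 1, combination 1 or combination 2 was left out. Without decitabine 2 the G1 list gave 3 calls, and without each of the other 3 libraries compared it gave 1, as the replication list did without each of the 4; the mitosis list gave 1 without decitabine 2 and 0 otherwise.

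**Figure D4:**
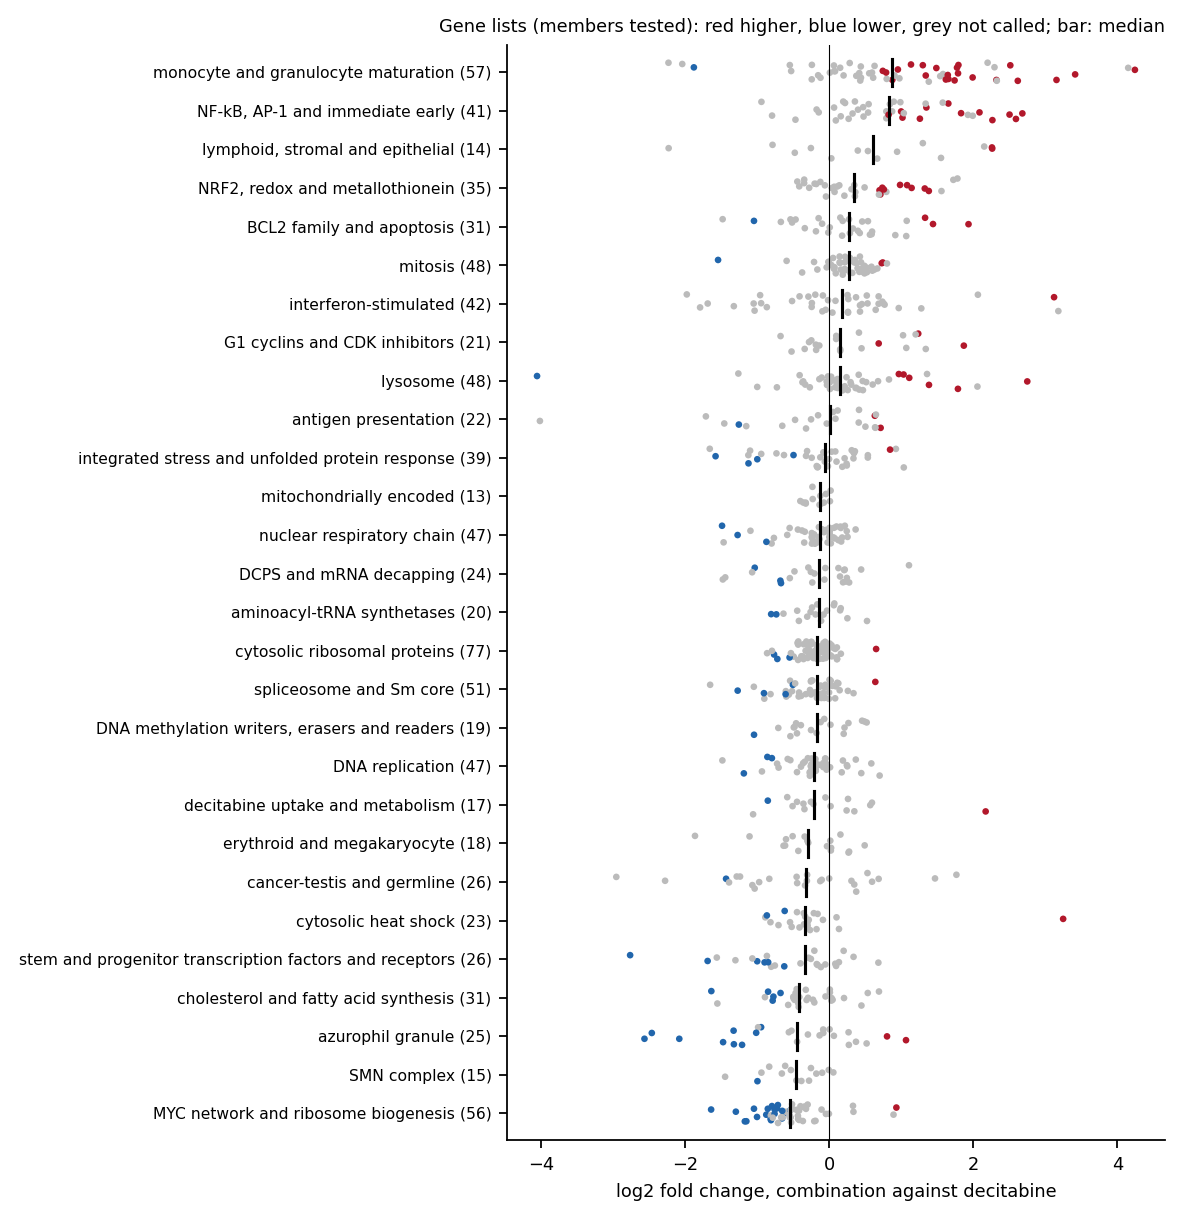
Log2 fold changes of the combination against decitabine for the tested members of the gene lists, 1 point per gene (red called higher, blue called lower, grey not called), with a bar at each list's median and the number tested in parentheses. Maturation genes lie highest with a median of 0.87, and ribosome biogenesis genes lowest with a median of -0.54.

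Genes of apoptosis changed in 4 of 31 tested members (12.9%, against 7.33% of all tested genes), 3 higher and 1 lower. BCL2, which blocks the mitochondrial route to death, had 2722 and 2668 with decitabine, 1266 and 1343 with the combination, 3825 and 3432 with DMSO and 1917 and 1961 with RG3039 alone. Its value was lowest in the combination libraries, with log2 fold changes of -1.05 ± 0.14, adjusted p = 0.0032 on decitabine and -0.90 ± 0.14, adjusted p = 0.00465 without. BBC3, whose product PUMA binds and blocks BCL2, rose from 495 and 572 to 1494 and 1398 (log2 1.44 ± 0.17, adjusted p = 0.00171). BCL2A1, another blocker of death, rose from 491 and 495 to 1161 and 1325 (log2 1.33 ± 0.19, adjusted p = 0.0043), not called at adjusted p = 0.0513 when combination 2 was left out. SAT1 and NINJ1 are not on the apoptosis list and were named through a list not reported here. SAT1, which breaks down polyamines, rose from 2126 and 2229 to 6350.3 and 7188 (log2 1.63 ± 0.17, adjusted p = 0.00128), and NINJ1, which acts in membrane rupture, from 909 and 917 to 2443 and 3189 (log2 1.61 ± 0.17, adjusted p = 0.0013). BCL2, BBC3, SAT1 and NINJ1 held their calls without each library. The apoptosis list gave 4 calls without combination 1 and 2 without combination 2.

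The most marked fall among stress genes was that of a chaperone of the endoplasmic reticulum. CALR, calreticulin, had 58228 and 58473 with decitabine, 20025 and 19037 with the combination, 44067 and 32742 with DMSO and 31363 and 26159 with RG3039 alone. The decitabine libraries stood highest and the combination lowest, with log2 fold changes of -1.58 ± 0.16, adjusted p = 0.00128 on decitabine and -0.41 ± 0.16, adjusted p = 0.173 without, a difference of -1.17 ± 0.23 with a 95% interval of -1.69 to -0.65 (unadjusted p = 0.000566, adjusted p = 0.505). CALR held its call without each library. In all, 4 of 39 genes of the integrated stress and unfolded protein response fell and 1 rose (12.8% called, against 7.33%). PDIA4, a disulfide isomerase, fell from 2695 and 2578 to 1341 and 1295 (adjusted p = 0.00494), not called at adjusted p = 0.0513 when combination 2 was left out. XBP1, the transcription factor of that response, fell by log2 1.12 ± 0.17, adjusted p = 0.00616, but not called at adjusted p = 0.0533 to 0.0543 when decitabine 1, combination 1 or combination 2 was left out. Of 23 cytosolic heat shock genes 2 fell and 1 rose (13.0%), at a median log2 fold change of -0.33. HSPE1, a mitochondrial chaperonin on that list, fell by log2 0.87 ± 0.16, adjusted p = 0.0126, but not called at adjusted p = 0.0598 to 0.0949 when decitabine 1, decitabine 2, combination 1 or combination 2 was left out. The stress response list gave 2 calls without decitabine 1, 3 without decitabine 2, 2 without combination 1 and 1 without combination 2, and the heat shock list gave 0 without each of these.

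Of 7 tested metallothioneins on the list, small proteins that bind zinc and copper, 5 rose, and their regulator MTF1 rose too. Of 35 genes of the NRF2, redox and metallothionein list 9 were higher and none lower, at a median log2 fold change of 0.35, against -0.02 over all genes (25.7% called against 7.33%). Near-identical sequences make the level of a single metallothionein uncertain. MT1X had 1374 and 1404 with decitabine, 3084 and 4247 with the combination, 880.4 and 889 with DMSO and 2326 and 2534 with RG3039 alone (log2 1.38 ± 0.17, adjusted p = 0.0025). MTF1, the zinc-sensing transcription factor of these genes, had 1196 and 1259 with decitabine, 2941 and 3216 with the combination, 1286 and 1059.7 with DMSO and 2757 and 2939.8 with RG3039 alone (log2 1.32 ± 0.15, adjusted p = 0.00176 on decitabine and 1.29 ± 0.15, adjusted p = 0.00144 without). Both held their calls without each library. MT2A reached 24247 and 29226 with the combination from 15059 and 16477 with decitabine, 16438 and 17913 with RG3039 alone and 4402 and 5898 with DMSO. Its log2 fold change was 0.76 ± 0.17, adjusted p = 0.0262 on decitabine and 1.75 ± 0.17, adjusted p = 0.000743 without. MT1H had the smallest interaction p of all genes: it stood at 12.9 and 12.1 with DMSO, 328 and 342 with decitabine, 245 and 253 with RG3039 alone and 736 and 746 with the combination. The change on RG3039 was 1.14 ± 0.25 on decitabine and 4.21 ± 0.25 without, and the interaction -3.07 ± 0.35, adjusted p = 0.124. FTH1, the heavy chain of ferritin, rose from 10786 and 12441 to 23786 and 22009 (log2 0.98 ± 0.15, adjusted p = 0.00695), but not called at adjusted p = 0.0517 to 0.0721 when decitabine 1, combination 1 or combination 2 was left out. On leaving out 1 library the adjusted p reached 0.187 for MT2A (combination 2) and 0.154 for MT1H (combination 1). The list gave 2 calls without decitabine 1, 4 without decitabine 2, 3 without combination 1 and 2 without combination 2.

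MTF1 binds the metal response element, whose core is TGCACNC or TGCGCNC. Either core was searched on both strands in the same RefSeq windows and occurs in 4134 of the 11086 windows of tested genes (37.3%) and 7942 of all 27305 (29.1%). Windows were found for 3 of the 8 tested metallothionein genes (MT1L, not on the list, included), and all 3 held it, MT1X 4 times, MT2A 8 times and MT1H 8 times. Those of MT1X (chr16:56682220-56682494, plus strand) and MT2A (chr16:56608334-56608608, plus strand) are shown because both genes rose and the cores repeat there; capitals mark each core on either strand, overlapping cores run together, and 7 of the 8 in MT2A fall in the 275 bases shown.
MT1X: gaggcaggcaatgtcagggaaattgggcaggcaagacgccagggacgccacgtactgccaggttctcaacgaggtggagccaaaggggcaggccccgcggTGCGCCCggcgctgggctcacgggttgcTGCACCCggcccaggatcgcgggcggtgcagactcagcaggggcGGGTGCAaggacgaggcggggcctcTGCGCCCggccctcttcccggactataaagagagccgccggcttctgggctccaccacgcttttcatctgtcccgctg
MT2A: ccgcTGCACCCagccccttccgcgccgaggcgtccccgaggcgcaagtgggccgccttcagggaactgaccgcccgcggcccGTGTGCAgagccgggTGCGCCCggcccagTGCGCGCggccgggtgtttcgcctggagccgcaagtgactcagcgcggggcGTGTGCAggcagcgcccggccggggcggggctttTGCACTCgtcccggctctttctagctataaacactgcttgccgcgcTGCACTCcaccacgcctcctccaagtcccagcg
These matches describe the letters of the windows only, and binding of MTF1 was not measured.

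Lysosome genes rose in 6 of 48 tested members and fell in 1, which was TFEC (14.6% called, against 7.33%). GAA, the enzyme that breaks down lysosomal glycogen, rose from 29.2 and 38.6 to 261 and 205 (log2 2.75 ± 0.38, adjusted p = 0.00405), not called at adjusted p = 0.0518 when combination 1 was left out. TFE3, of the same transcription factor family as TFEC, rose from 321 and 417 to 952 and 959 (log2 1.38 ± 0.24, adjusted p = 0.00976), but not called at adjusted p = 0.0707 to 0.0735 when decitabine 1, combination 1 or combination 2 was left out. The proteases CTSB and CTSD and the sphingomyelinase SMPD1 were also called higher (log2 1.11 ± 0.20, 1.03 ± 0.18 and 1.79 ± 0.35). Their adjusted p reached 0.0959 for CTSB (combination 2), 0.106 for CTSD (combination 1) and 0.125 for SMPD1 (combination 2) on leaving out 1 library. The list gave 2 calls without decitabine 1, 5 without decitabine 2 and 2 without combination 1 and as many without combination 2.

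Genes of cholesterol and fatty acid synthesis fell in 5 of 31 tested members (16.1%, against 3.39% of all tested genes) and rose in none, at a median log2 fold change of -0.42. FASN, fatty acid synthase, fell from 3244 and 3085 to 2079 and 1882 (log2 -0.68 ± 0.13, adjusted p = 0.0173), SCD, the desaturase, from 2649.5 and 2552 to 1544 and 1347 (log2 -0.85 ± 0.18, adjusted p = 0.0227), and HMGCS1, an early enzyme of the mevalonate pathway, from 2176 and 2555 to 1472 and 1286 (log2 -0.78 ± 0.16, adjusted p = 0.0209). Their adjusted p reached 0.129 for FASN (combination 2), 0.147 for SCD (combination 2) and 0.144 for HMGCS1 (combination 2) on leaving out 1 library. The list gave 1 call without decitabine 1, 0 without decitabine 2, 0 without combination 1 and 1 without combination 2. Of 47 nuclear genes of the respiratory chain 3 fell and none rose (6.38% called, near the 7.33% of all tested genes, median -0.14). None of 13 mitochondrially encoded mRNAs was called (median -0.14). NDUFB5, a subunit of complex I, fell from 1563 and 1325 to 611 and 579 (log2 -1.27 ± 0.17, adjusted p = 0.0037) and held without each library. The respiratory chain list gave 1 call without combination 2 and 2 without each of the other 3 libraries compared. Mitochondrial tRNA genes were counted as a group outside the gene lists. Of 20 tested, 5 rose (25%, against 3.94% of all tested genes) and none fell, at a median log2 fold change of 0.84. Whether reads of neighbouring mitochondrial transcripts add to these values was not tested. MT-TL1, the leucine tRNA gene next to the ribosomal RNAs, was the member that held without each library, at 54015 and 61162 with decitabine, 116409 and 165320.0 with the combination, 28301 and 32697 with DMSO and 71595 and 79946 with RG3039 alone (log2 1.27 ± 0.18, adjusted p = 0.0043).

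Markers of cells that an HL-60 culture should not hold were called in 2 genes. TRAC, the constant part of the T-cell receptor alpha chain, had 442 and 422 with decitabine, 1963 and 2183 with the combination, 45.4 and 28.7 with DMSO and 523 and 767 with RG3039 alone. It rose by log2 2.26 ± 0.27, adjusted p = 0.00213 on decitabine and 4.10 ± 0.27, adjusted p = 0.000216 without, and the difference was -1.84 ± 0.39 with a 95% interval of -2.71 to -0.96 (unadjusted p = 0.000931, adjusted p = 0.591). PECAM1, an adhesion molecule of endothelium that myeloid cells and platelets also carry, rose from 565 and 821 to 3085 and 3459.9 (log2 2.26 ± 0.20, adjusted p = 0.000829). Both held without each library. The summed value of the 31 lymphoid, stromal and epithelial markers was 2516 to 2871 with DMSO, 3528 to 3671 with decitabine, 4563 to 4772 with RG3039 alone and 8305 to 8891 with the combination, and without TRAC and PECAM1 it was 2428 to 2521 with decitabine and 3248 to 3258 with the combination; their part in other results was not tested. None of the 18 tested erythroid and megakaryocyte markers was called.

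**Figure D5:**
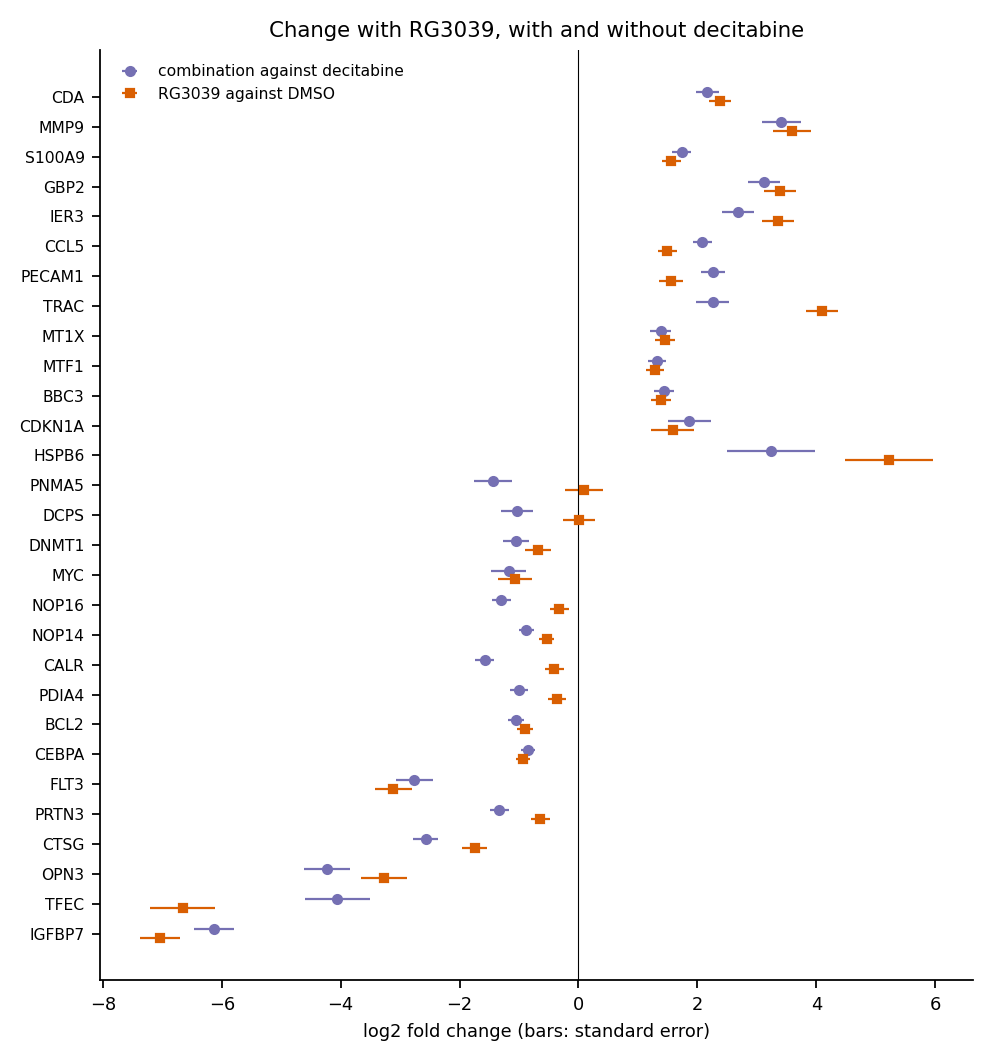
Log2 fold changes with their standard errors for 29 genes, on adding RG3039 to decitabine (circles) and to DMSO (squares). Most pairs lie on the same side of 0, from IGFBP7 at the bottom left to CDA and MMP9 at the top. DCPS, PNMA5, NOP16 and CALR lie below 0 on decitabine and higher without it, where DCPS and PNMA5 are close to 0. None of these differences was called.

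MT1H, HVCN1 and JAML, given with their groups, belong to the 10 genes with the smallest interaction p, none of them called; the other 7 were also chosen after their values were seen. ZNF641, a zinc finger gene, had 49.2 and 107 with decitabine, 589 and 719 with the combination, 188 and 333 with DMSO and 109 and 78.3 with RG3039 alone. It rose on decitabine (log2 3.14 ± 0.42, adjusted p = 0.00324, held without each library) and gave -1.43 ± 0.42, adjusted p = 0.07 without it, an interaction of 4.57 ± 0.59, adjusted p = 0.183. LINC00649, a long non-coding RNA annotated as antisense, had 282 and 252 with decitabine, 118 and 134 with the combination, 31.6 and 34.7 with DMSO and 122 and 138 with RG3039 alone, with -1.08 ± 0.29, adjusted p = 0.0578 on decitabine and 1.94 ± 0.29, adjusted p = 0.00441 without. BAHCC1, a chromatin-binding protein, was the 1 gene called in opposite directions, at 2503 and 2364 with decitabine, 1524 and 1377 with the combination, 1946 and 1976 with DMSO and 2823 and 2935 with RG3039 alone. It fell on decitabine (log2 -0.75 ± 0.14, adjusted p = 0.0137) and rose without (log2 0.55 ± 0.14, adjusted p = 0.0402), an interaction of -1.30 ± 0.20, adjusted p = 0.326. The fall of BAHCC1 was not called at adjusted p = 0.0501 to 0.108 when decitabine 1, decitabine 2, combination 1, combination 2, decitabine 1, decitabine 2, combination 1 or combination 2 was left out. ZNF704, another zinc finger gene, stood at 158 and 214 with decitabine and between 403 and 675 in the other 6 libraries, with log2 changes of 1.78 ± 0.22 on decitabine and 0.06 ± 0.22 without. MT1G, a metallothionein, had 2764 and 2821 with decitabine, 4177 and 5174 with the combination, 659 and 907 with DMSO and 3696 and 3910.2 with RG3039 alone, with 0.74 ± 0.18, adjusted p = 0.0416 on decitabine and 2.30 ± 0.18, adjusted p = 0.000372 without, an interaction of -1.56 ± 0.26, adjusted p = 0.452. PITX1, a homeobox factor, had 2818 and 3082 with decitabine, 5582 and 5675 with the combination, 1279 and 1130.1 with DMSO and 4740.4 and 4924 with RG3039 alone, with 0.93 ± 0.14, adjusted p = 0.00494 on decitabine and 2.01 ± 0.14, adjusted p = 0.000216 without, an interaction of -1.07 ± 0.19, adjusted p = 0.505. On leaving out 1 library the adjusted p on decitabine reached 0.236 for MT1G (combination 2) and 0.053 for PITX1 (combination 2). GP1BB, a platelet glycoprotein chain, was listed at 0 in both libraries with RG3039 alone against 273 and 27.2 in the DMSO libraries; the decitabine libraries had 639 and 533 and the combination libraries 1013 and 665.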

How the data were processed

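RNA from 8 libraries of HL-60 cells (4 treatments, 2 libraries each) was sequenced by a 3′ method, per the labels' protocols. The authors deposited 1 table of normalised values, a signal per gene on a linear scale; the submitters' processing notes name Salmon 1.2.1, STAR, featureCounts, DESeq2, limma and hg38, and which of them made the values, and the counting strand, are not given in the sources used here. Low values were whole multiples of the value of 1 read in only 74.4% to 80.8% of cases (tolerance 0.02 reads), so no count test was run; the same step gave the estimated depth. Genes listed by Ensembl identifier were matched to GENCODE 29 (58064 of 60240). The 17534 genes with a mean of at least 10 were fitted as log2(value + 1) over all 4 groups with limma 3.58.1 (R 4.3.3, trended prior), p-values were adjusted by Benjamini-Hochberg over all of them, and genes were called at an adjusted p under 0.05. Errors are standard errors of the fit. With 2 libraries per group an exact permutation test of a single gene cannot reach 0.05. Tables and plots used Python 3.11.15, pandas 2.3.3, numpy 2.4.6 and matplotlib 3.10.9, and the fit was tested on simulated data.

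Named genes were first the 12 largest rises and 12 largest falls. These were taken among called genes with a mean of at least 20 and groups that do not overlap. Also named were the 3 smallest p-values of each of 29 gene lists and a set of drug-related genes. Others are marked as chosen later, are called members of a list or are markers of the line or of other cells. MYB is a list member without a call. Mitochondrial tRNA, SNHG, histone and long intergenic RNA genes were counted by name or type outside the lists, and MT-TL1 was named from them. Of 1090 list symbols 1071 were matched, and 965 of the list members were tested. Some genes and 1 list are not reported here. The comparison, its genes and the lists were chosen with earlier results of these data known. Promoter sequences are from RefSeq (GRCh38.p14). Alternatives were other scalings, pseudocounts, filters and priors, a replicate block, fits of only the groups compared, and leaving out each library.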

Additional observations from a re-analysis of the deposited data

Results flagged for a closer look

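For 591 of the 17534 genes tested (3.37%) every library moved one way on RG3039 with decitabine and the opposite way without it. Of these 10 were called in combination against decitabine, and the 5 described here are those among the named genes and the 10 genes with the smallest interaction p that had no group at 0 in both libraries. None of the differences was called by limma. For ZNF641 the difference of the log2 fold changes, with minus without decitabine, was 4.57 ± 0.59 (adjusted p = 0.183). LINC00649 differed by -3.02 ± 0.42 (adjusted p = 0.213) and BAHCC1 by -1.30 ± 0.20 (adjusted p = 0.326). SP100, a nuclear body protein, had values of 1491 and 1144 with decitabine, 2012 and 2353 with the combination, 2019 and 2503 with DMSO and 1455 and 1749 with RG3039 alone, a difference of 1.23 ± 0.27 (adjusted p = 0.654). ACSBG1, an acyl-CoA synthetase, had 1.04 and 5.23 with decitabine, 197 and 78.4 with the combination, 1.17 and 24.4 with DMSO and 0 and 0.308 with RG3039 alone, a difference of 7.83 ± 1.83 (adjusted p = 0.709) that rests on low values.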

How the results depend on the processing

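The count of genes called between combination and decitabine, 1286, was 1263 to 1635 under other scalings (quantile, library total, upper quartile), pseudocounts of 0.5 and 8, a minimum mean of 50 and robust variance estimates, 998 with no filter on the mean and 1163 with only the groups compared. Without a mean-variance trend it was 432 (277 higher, 155 lower, so 64.1% higher against 53.7%; 48.1% to 64.8% leaving out 1 library), and with at least a 2-fold change 818 (349 lower). Leaving out 1 library gave 305 to 1391 called, 148 to 774 higher and 116 to 617 lower. For RG3039 against DMSO the count was 718 without the trend, 481 with only the groups compared and 496 to 1263 leaving out 1 library. The interaction gave 0 to 2 genes leaving out 1 library. The correlation of both RG3039 changes across genes, 0.50, was 0.57 at a pseudocount of 8, 0.30 with no filter, 0.64 at a minimum mean of 50, and 0.39 to 0.51 leaving out 1 library. The cause of these shifts was not tested. Without combination replicate 2 fewer genes were higher than lower. No named gene with a call changed direction in these fits. Among named genes without a call, DNMT3A, DNMT3B and SAMHD1 had overlapping decitabine and combination values. Their direction can therefore turn on leaving out 1 library. Replicate numbers are not stated to pair the wells, and deviations of same-numbered wells correlated at -0.08 between decitabine and combination and at 0.05 to 0.16 between the other groups; with a replicate block 1678 genes were called. Unequal depth and 2 libraries per group limit the precision.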

Other observations

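Further genes held their calls without each library and lie outside the lists; they were chosen after their values were seen. Among regulators, ID2, an inhibitor of basic helix-loop-helix factors, rose from 2574 and 2804 on decitabine to 7881 and 8219 on both drugs (log2 1.58 ± 0.13, adjusted p = 0.000797 in limma), and HEXIM1, which restrains the elongation kinase P-TEFb, from 810.4 and 915 to 2426 and 2934 (log2 1.63 ± 0.16, adjusted p = 0.0011). SQSTM1, the autophagy receptor p62, rose from 4959 and 5567 to 14217 and 16225 (log2 1.53 ± 0.17), and NAMPT, which makes the precursor of NAD, from 1442 and 1032 to 4088 and 3917 (log2 1.71 ± 0.18). HGF, hepatocyte growth factor, fell from 1165 and 1404 to 398 and 408 (log2 -1.66 ± 0.21, adjusted p = 0.0025), and TNFSF13B, the B-cell factor BAFF, from 2268 and 2895 to 994 and 1027 (log2 -1.34 ± 0.16, adjusted p = 0.00213). FABP5, a fatty acid carrier, fell from 4809 and 5147 to 2448 and 2606 (log2 -0.98 ± 0.13).

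Of all tested genes 3.94% were called higher and 3.39% lower. Of 24 tested small nucleolar RNA host genes of the SNHG series 3 rose (12.5%) and 2 fell (8.33%). Their median log2 fold change was -0.60 on decitabine and -0.15 without it. Of 61 tested histone genes, whose near-identical copies make single levels uncertain, 6 rose (9.84%) and 1 fell (1.64%).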
